A study of Homo sapiens with 6 samples.

Results

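The glycolysis and hypoxia-induced genes described here are 40 protein-coding genes of the sugar-burning pathway and of the cellular answer to low oxygen. They were taken by name, with each gene identifier of the count table (version removed) matched to its symbol. All 40 were found among the 27745 genes of the table, and all 40 passed the filter on low counts that left 15372 genes for testing. Glycolysis enzymes and their regulators, glucose and lactate transporters, the HIF alpha subunits with their prolyl hydroxylases, and well-known targets of HIF make up the list, and none was chosen by a value measured here.

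The RNA came from MDA-MB-231, an established human line of triple-negative breast cancer, which was infected with pLKO.1 lentivirus and collected 72 h later. MIR100HG, a long non-coding RNA that hosts microRNA genes in its introns, was the target of the shRNAs sh-MIR100HG-1 and sh-MIR100HG-2, and the control libraries carried the sh-TRC construct. There were 3 groups of 2 biological replicates, 6 libraries in all, made from total RNA. Each library holds the RNA of a whole infected culture, so a change of a gene in every cell and a change in the share of cells that express it cannot be told apart.

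Glycolysis splits glucose into pyruvate in the cytosol, and in tumour cells much of that pyruvate is turned into lactate and exported even when oxygen is present. When oxygen is low, prolyl hydroxylases of the EGLN family no longer mark the HIF alpha subunits for destruction through VHL, and HIF then binds the core letters ACGTG or GCGTG near its target genes, among them many glycolysis enzymes, transporters, carbonic anhydrases and VEGFA. Triple-negative tumours are known for high activity of this programme, and SLC2A1, LDHA and CA9 are commonly read as its markers.

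The promoters of 4 members show what such target genes look like in sequence. HK2 is shown as 1 of the 2 members that were higher in every knockdown library than in both controls. CA9 is shown as the member that differed most between the shRNAs. LDHA and BNIP3 are among the members with the most matches to the HIF core, with 5 and 6. The letters are the 250 bases before the RefSeq start site on build GRCh38.p14, read 5′ to 3′ on the strand of the gene, with each match to ACGTG or GCGTG on either strand in capitals. The windows are chr2:74833877-74834126 on the plus strand for HK2, chr11:18394313-18394562 on the plus strand for LDHA, chr9:35673678-35673927 on the plus strand for CA9 and chr10:131981924-131982173 on the minus strand for BNIP3.
HK2 promoter: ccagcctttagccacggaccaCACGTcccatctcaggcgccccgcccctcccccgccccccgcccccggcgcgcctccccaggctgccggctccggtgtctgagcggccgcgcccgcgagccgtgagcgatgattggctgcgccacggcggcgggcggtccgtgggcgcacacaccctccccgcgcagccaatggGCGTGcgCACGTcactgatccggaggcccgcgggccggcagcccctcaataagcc
LDHA promoter: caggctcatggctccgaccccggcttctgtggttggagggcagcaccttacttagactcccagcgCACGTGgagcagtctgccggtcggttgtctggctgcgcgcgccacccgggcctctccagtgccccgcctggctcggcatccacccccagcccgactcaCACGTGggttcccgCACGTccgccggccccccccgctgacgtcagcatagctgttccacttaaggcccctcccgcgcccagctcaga
CA9 promoter: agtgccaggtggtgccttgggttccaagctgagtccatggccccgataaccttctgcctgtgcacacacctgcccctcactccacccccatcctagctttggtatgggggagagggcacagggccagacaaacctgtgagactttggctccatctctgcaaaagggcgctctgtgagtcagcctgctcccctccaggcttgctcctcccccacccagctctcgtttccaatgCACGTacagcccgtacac
BNIP3 promoter: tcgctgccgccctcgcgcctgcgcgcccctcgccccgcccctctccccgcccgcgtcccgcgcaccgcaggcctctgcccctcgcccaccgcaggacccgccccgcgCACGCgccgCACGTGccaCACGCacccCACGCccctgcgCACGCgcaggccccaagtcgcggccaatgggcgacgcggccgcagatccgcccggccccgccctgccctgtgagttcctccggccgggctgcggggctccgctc

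CACGTG holds ACGTG on both strands, so such a place counts as 2 matches. In HK2, matches began 229, 55 and 48 bases before the start, and in LDHA they clustered at 185 to 180 and at 87 to 69 bases before it. The match of CA9 lay 18 to 14 bases before the start. The 6 matches of BNIP3 lay between 143 and 100 bases before the start. Of the 35 members with an entry in the RefSeq promoter table, 23 held at least 1 match in this window (65.71%), beside 43.08% of all 27305 promoters. SLC2A3, SLC16A1, VEGFA, BNIP3L and NDRG1 had no entry. A match is a description of letters and was not tied to binding or to any change below.

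The 6 libraries held 43804736 to 64588388 counts, of which the 40 members took 1.61% to 1.998%. MIR100HG stood at 41.9 and 58.5 CPM (counts scaled to library size, normalised by the TMM method) in the controls, at 15.2 and 13.2 with sh-MIR100HG-1 and at 16.6 and 10.4 with sh-MIR100HG-2, so every knockdown library was below both controls. Its log2 fold change (log2FC) of both shRNAs together against control was -1.86 ± 0.25 (SE), with an adjusted p of 0.381 in edgeR's quasi-likelihood test, in which no gene reached 0.05. Markers of the cell line were present throughout (VIM 1607 to 2095 CPM). Of the hormone and HER2 receptors, PGR was at or near 0, while ERBB2 stood at 71.6 to 116 CPM. The leukocyte and endothelial lists summed to at most 2.86 and 0.969 CPM. The libraries sh-TRC replicate 2 and sh-MIR100HG-1 replicate 1 stood apart from the other 4. They shared 66 genes at more than 10 times the level of every other library. ESR1, which is not among those 66, stood at 2.38 and 2.79 CPM in these libraries and at 0.120 to 0.590 CPM elsewhere, and the fibroblast list summed to 22.2 and 21.8 CPM in them and to 9.33 to 13.2 elsewhere. None of the 66 genes was a member. Mitochondrially encoded genes took 1.52% and 1.84% of the counts with sh-MIR100HG-2 and 2.41% to 3.46% in the other 4 libraries. The part of these differences in the members' values was not tested, and the main results are also given without these 2 libraries.

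Over the 40 members, 23 were higher and 17 lower after knockdown, with a median log2FC of 0.07 beside -0.04 for all genes tested. By edgeR's quasi-likelihood test 0 of 40 members passed an adjusted p of 0.05 in any comparison, where the share of all tested genes called was also 0%. At an unadjusted p under 0.05, 1 member was higher after knockdown and 0 lower, beside 3.23% and 4.44% of all genes. With sh-MIR100HG-1 alone 1 was higher and 0 lower (background 3.1% and 3.77%), and with sh-MIR100HG-2 alone 2 were higher and 0 lower (background 3.71% and 5.15%). Between the shRNAs, 2 were higher with sh-MIR100HG-2 than with the other and 1 was lower (background 3.34% and 6.12%). The comparisons of the 2 shRNAs with control use the same control libraries. In 2 members, 5% of the list, all 4 knockdown libraries lay above both controls (8.4% of all genes), and in 0 members all 4 lay below (9.08% of all genes). DESeq2, the likelihood ratio test of edgeR and the quasi-likelihood fit without the filter on low counts each called 1 member after knockdown, and it was SLC2A3 in all 3. Of all genes they called 0.807%, 0.709% and 1.84%.

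**Figure D1:**
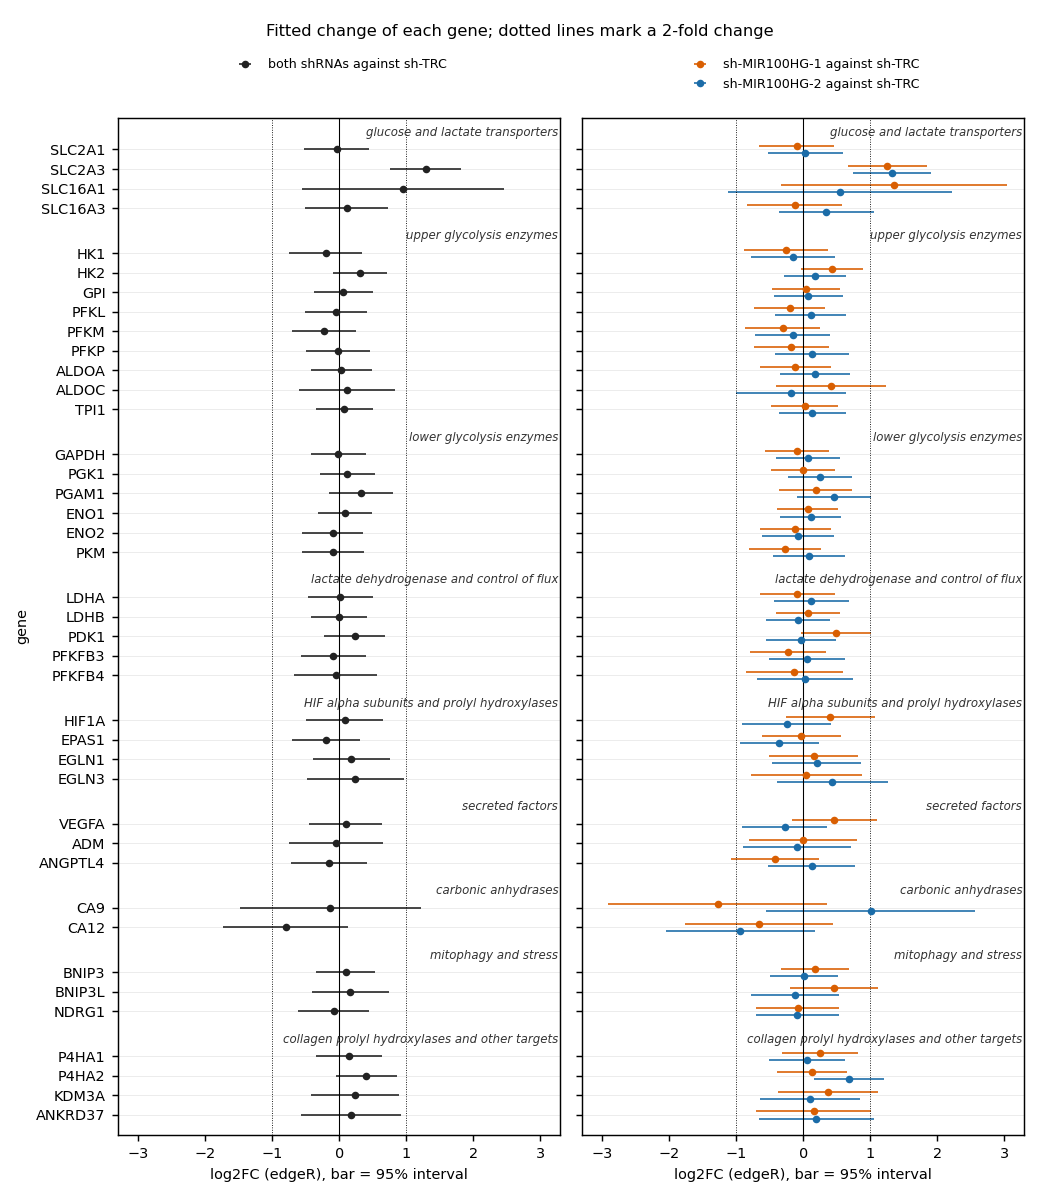
Fitted log2FC of the 40 genes with 95% intervals, for both shRNAs together against sh-TRC (left) and for each shRNA against sh-TRC (right), grouped by role. The left-hand interval lies inside a 2-fold change either way for 36 of 40 genes and leaves out 0 only for SLC2A3.

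The precision behind these counts was that of 2 libraries per group. The standard error of a member's log2FC after knockdown had a median of 0.21 and ran from 0.17 to 0.66. For 36 of 40 members the 95% interval lay inside a 2-fold change in either direction. With a single shRNA against control this held for 28 members in the case of sh-MIR100HG-1 and 30 in that of sh-MIR100HG-2.

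Glucose enters tumour cells mainly through SLC2A1 (GLUT1) and SLC2A3 (GLUT3, a high-affinity transporter best known from neurons). SLC2A3 stood at 62.2 and 79.2 CPM in the controls, at 194 and 143 CPM with sh-MIR100HG-1 and at 199 and 155 CPM with sh-MIR100HG-2. The lowest knockdown library was well above the higher control, and the shRNAs overlapped each other. Group means were 70.7 ± 12.0, 169 ± 36.5 and 177 ± 30.7 CPM (SD, n = 2). The log2FC after knockdown was 1.29 ± 0.23 (SE), a 2.44-fold difference with a 95% interval of 1.69 to 3.53, and taken singly sh-MIR100HG-1 gave 1.25 and sh-MIR100HG-2 1.32.

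SLC2A3 ranked 14th by p among all genes tested, yet its adjusted p was 0.381 in edgeR's quasi-likelihood test, against 0.00229 in the likelihood ratio test of edgeR, 2.5e-04 in DESeq2 and 7.9e-05 in the quasi-likelihood test without the filter. The exact permutation test over the 6 libraries gave 0.0667, the smallest two-sided p that 4 against 2 libraries allow. With both libraries that stand apart left out the log2FC was 1.35. The gene lies on the minus strand of chromosome 12 from 8071826 to 8088871 (GRCh37). Its close paralog SLC2A14, with which reads may be shared, reached at most 1.02 CPM.

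SLC2A1 was the more abundant transporter, at 438 and 564 CPM in the controls, 417 and 518 CPM with sh-MIR100HG-1 and 434 and 587 CPM with sh-MIR100HG-2. The 3 groups overlapped throughout, and the log2FC after knockdown was -0.04, with a 95% interval from -0.52 to 0.45. Per kilobase of exon, SLC2A3 made up 10.2% and 10.1% of the sum of both transporters in the controls. With sh-MIR100HG-1 the share was 27.1% and 18.1%, and with sh-MIR100HG-2 it was 26.8% and 17.4%. All 4 knockdown libraries were above both controls in that share, with replicate 1 of each shRNA above replicate 2 (exact permutation p = 0.133, and 0.963 after adjustment over 13 families).

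Lactate leaves the cell through monocarboxylate transporters, of which SLC16A3 (MCT4) is the form induced by hypoxia. It stood at 379 and 671 CPM in the controls, at 567 and 395 CPM with sh-MIR100HG-1 and at 733 and 597 CPM with sh-MIR100HG-2, so that the controls spanned most of the range of all 6 libraries. SLC16A1 (MCT1) was close to absent, at 2.57 and 0.629 CPM in the controls, 3.54 and 4.63 CPM with sh-MIR100HG-1 and 1.08 and 3.58 CPM with sh-MIR100HG-2. Its log2FC of 0.95 was the second largest of the list, but the controls lay far apart and the 95% interval ran from -0.55 to 2.45. Leaving out sh-TRC replicate 1 gave 2.29 (unadjusted p = 0.0235 in edgeR's quasi-likelihood test), leaving out sh-TRC replicate 2 gave 0.26 and leaving out sh-MIR100HG-2 replicate 2 gave 0.40, so the size of the value followed which library was left out. SLC16A3 held 98.1% to 99.8% of the sum of both per kilobase in every library.

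**Figure D2:**
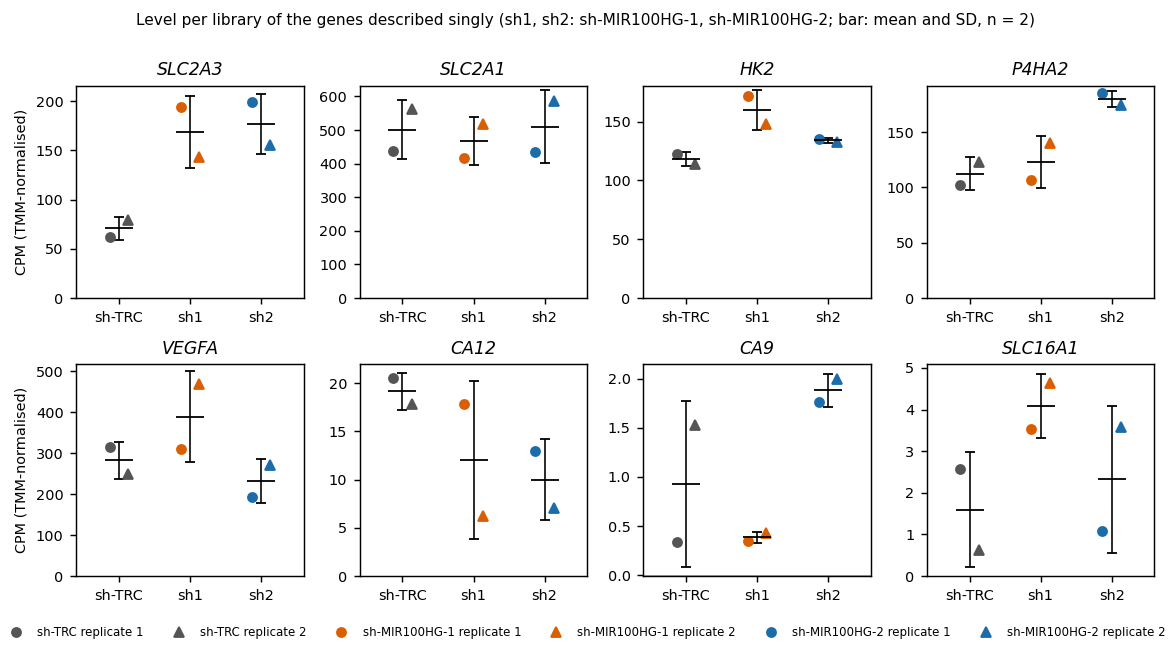
Level in each library, in TMM-normalised CPM on axes that start at 0, of 8 genes described singly, with the mean and SD of the 2 replicates. SLC2A3 is the clearest separation of knockdown from control, and SLC2A1 beside it overlaps throughout. Of these 8 genes, HK2, P4HA2, VEGFA and CA9 separate the 2 shRNAs from each other. Members not plotted do so too, among them ALDOA, PKM and PDK1, and the share of all genes was not counted.

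The 15 enzymes from hexokinase to pyruvate kinase showed small fitted changes and no call. Their log2FC after knockdown ran from -0.23 to 0.32 with a median of 0.03, 8 were higher and 7 lower, and 0 of 15 reached even an unadjusted p of 0.05. For all 15 the 95% interval stayed within a 2-fold change, the outermost bounds being -0.75 and 0.82 on the log2 scale. Summed over the 15, the libraries held 11044 and 14698 CPM in the controls, 12603 and 11651 CPM with sh-MIR100HG-1 and 13894 and 13887 CPM with sh-MIR100HG-2. All 4 knockdown sums lay between those of the controls. Both sums of sh-MIR100HG-2 were above both of sh-MIR100HG-1. With sh-MIR100HG-2, 7 of 9 upper and 6 of 6 lower enzymes were higher than with sh-MIR100HG-1, beside 49% of all genes. At an unadjusted p under 0.05 in edgeR's quasi-likelihood test, 0 of these enzymes differed between the shRNAs.

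Hexokinase commits glucose to the pathway, and HK2 is its inducible form while HK1 is present in most tissues. HK2 stood at 122 and 114 CPM in the controls, 172 and 148 CPM with sh-MIR100HG-1 and 135 and 133 CPM with sh-MIR100HG-2. Every knockdown library lay above both controls by a small margin, and the log2FC of 0.31 ± 0.18 (SE) had an unadjusted p of 0.120 in edgeR's quasi-likelihood test. Both libraries of sh-MIR100HG-1 also lay above both of sh-MIR100HG-2. HK1 stood at 329 and 350 CPM in the controls, 348 and 220 CPM with sh-MIR100HG-1 and 355 and 255 CPM with sh-MIR100HG-2. Its replicate 2 was low with each shRNA while replicate 1 matched the controls, and the log2FC was -0.21.

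Per kilobase HK2 made up 27.1% and 24.6% of the hexokinase sum in the controls, 33.1% and 40.2% with sh-MIR100HG-1 and 27.6% and 34.2% with sh-MIR100HG-2. The lowest knockdown share was barely above the highest control (exact permutation p = 0.200). GPI, the isomerase that follows, ranged from 278 to 362 CPM with a log2FC of 0.06.

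Phosphofructokinase carries the main controlled step, and its platelet form PFKP supplied 75.2% to 80.2% of the family per kilobase in every library. PFKP ranged from 452 to 674 CPM (log2FC -0.02) and the liver form PFKL from 155 to 221 CPM (log2FC -0.05). The muscle form PFKM had the lowest log2FC of all 15 enzymes, -0.23, from 90.4 and 97.0 CPM in the controls to 63.4 and 88.1 CPM with sh-MIR100HG-1 and 73.8 and 94.0 CPM with sh-MIR100HG-2. The highest knockdown library of PFKM lay within the control range and its unadjusted p was 0.295 in the same fit.

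Among the aldolases ALDOA, at 686 to 1002 CPM, accounted for 96.0% to 98.4% of the sum per kilobase, and its log2FC was 0.03. ALDOC, the brain form and a known hypoxia target with 5 matches to the HIF core before its start, stood at 8.82 and 8.58 CPM in the controls and at 15.5 CPM in sh-MIR100HG-1 replicate 1, the highest library, and at 7.52 to 7.75 CPM in the other 3 knockdown libraries. Triosephosphate isomerase, TPI1, ranged from 595 to 778 CPM with a log2FC of 0.08.

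The lower part of the pathway held the most abundant members. GAPDH, which makes the first NADH and served the study as the reference gene of its qPCR, stood at 2835 and 3718 CPM in the controls, 3252 and 2879 CPM with sh-MIR100HG-1 and 3468 and 3394 CPM with sh-MIR100HG-2. The 4 knockdown libraries lay between the controls, the log2FC was -0.01 and the 95% interval in fold was 0.742 to 1.32. In controls its level per kilobase ranked 17th of all genes. PGK1, the first ATP-making kinase, ranged from 716 to 1014 CPM (log2FC 0.12) and enolase ENO1 from 2005 to 2552 CPM (log2FC 0.09).

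PGAM1, the mutase between them, had the largest log2FC of the 15 enzymes, 0.32, from 305 and 468 CPM in the controls to 440 and 439 CPM with sh-MIR100HG-1 and 518 and 545 CPM with sh-MIR100HG-2. Both libraries of sh-MIR100HG-2 but neither of sh-MIR100HG-1 stood above both controls, and the unadjusted p after knockdown was 0.164 in edgeR's quasi-likelihood test. Neuronal enolase ENO2 held 5.04% to 7.57% of the enolase sum per kilobase. PKM, the last enzyme, stood at 2266 and 3436 CPM in the controls with every knockdown library between them (2288 to 3112 CPM).

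GAPDH, PGAM1, TPI1, ENO1 and LDHA have processed pseudogenes in the genome, and how reads with several places were counted is not given in the sources used here, so their counts are uncertain to that extent. The controls themselves differed in these genes. Replicate 2 was above replicate 1 for 13 of 15 enzymes and for 28 of 40 members. Relative to the mean of both controls, the members' median log2 level was -0.093 in replicate 1 and 0.093 in replicate 2. For all genes tested it was 0.005 and -0.005. For 29 members the control replicates lay further apart on the log2 scale than the fitted change after knockdown. These counts were not made over all genes. Single libraries vary more than group means, so 29 of 40 was not read as particular to the members. The median distance between the controls was 0.33 on the log2 scale, beside a median size of 0.11 for the log2FC.

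**Figure D3:**
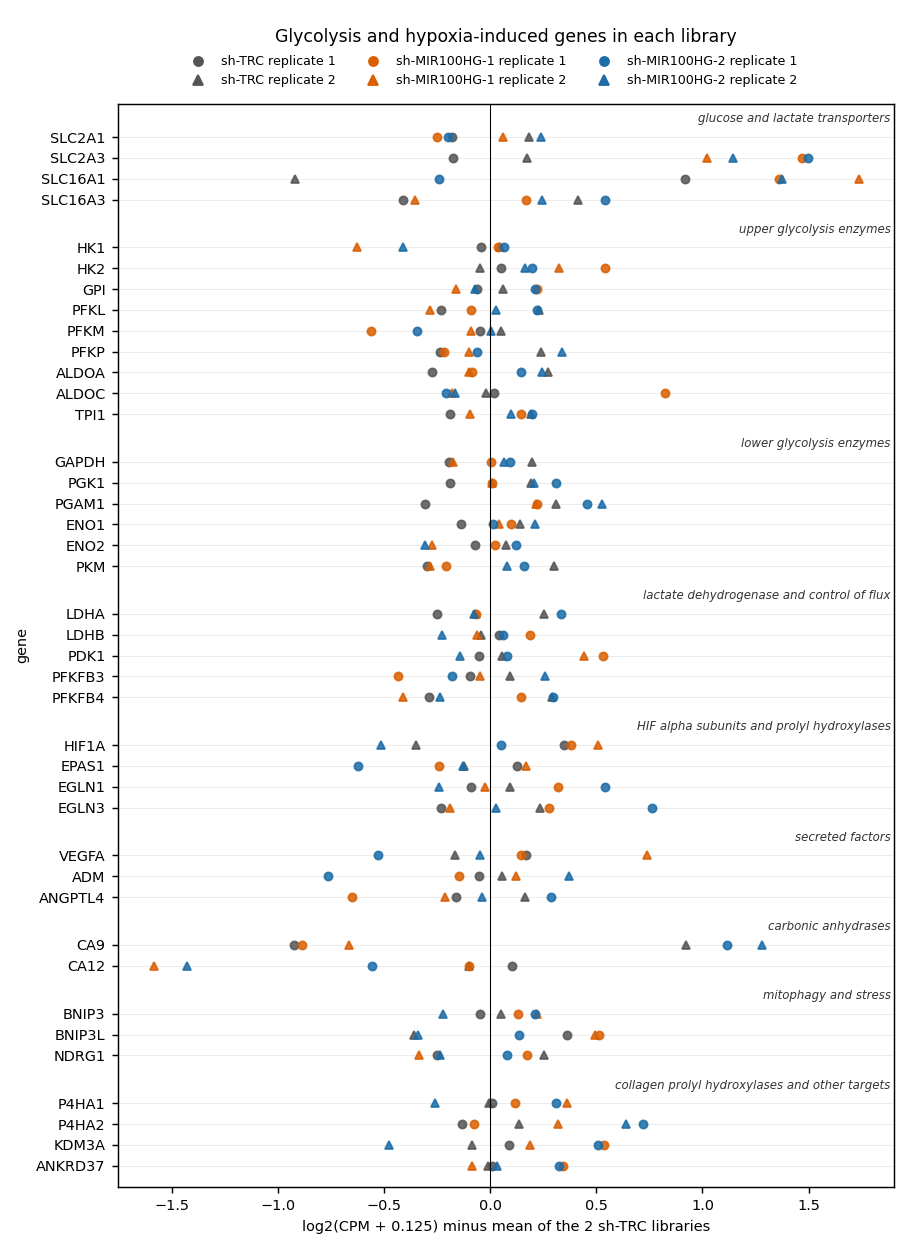
Level of each of the 40 genes in each library as log2(CPM + 0.125) relative to the mean of the 2 sh-TRC libraries (grey), in order of role. Grey triangles lie right of grey circles for 28 of 40 genes, a count not made over all genes. Coloured points fall on both sides of 0 for most genes, and SLC2A3 alone has all 4 coloured points beyond 1.

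Lactate dehydrogenase turns pyruvate into lactate. LDHA stood at 1181 and 1674 CPM in the controls, 1343 and 1343 CPM with sh-MIR100HG-1 and 1771 and 1334 CPM with sh-MIR100HG-2. The groups overlapped and the log2FC was 0.02. LDHB, the form that favours the way back, ranged from 368 to 492 CPM with a log2FC of -0.01, and the LDHA share of the sum per kilobase ran from 56.1% to 65.7%, with the controls at these very ends.

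PDK1 inhibits pyruvate dehydrogenase in mitochondria by phosphorylating it. It stood at 20.6 and 22.2 CPM in the controls, 31.0 and 29.1 CPM with sh-MIR100HG-1 and 22.6 and 19.3 CPM with sh-MIR100HG-2. Both sh-MIR100HG-1 libraries were above the other 4, with a log2FC of 0.49 for that shRNA and -0.03 for the other, and the difference between the shRNAs had an unadjusted p of 0.0521. PFKFB3 and PFKFB4, which set the level of the main activator of phosphofructokinase, had log2FC of -0.09 and -0.06 after knockdown.

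The HIF alpha subunits are controlled mostly at the protein level, which these data do not measure. HIF1A mRNA stood at 436 and 269 CPM in the controls, 446 and 487 CPM with sh-MIR100HG-1 and 355 and 239 CPM with sh-MIR100HG-2. The controls lay far apart, both sh-MIR100HG-1 libraries were above them, and the difference between the shRNAs was -0.65 ± 0.29 on the log2 scale (SE), with an unadjusted p of 0.0546 in edgeR's quasi-likelihood test. EPAS1, which encodes HIF-2 alpha, ranged from 70.4 to 122 CPM with a log2FC of -0.19. The oxygen sensors EGLN1 and EGLN3, of which EGLN3 is itself a strong HIF target, had log2FC of 0.18 and 0.24, and EGLN3 stayed between 5.86 and 11.8 CPM.

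Of the secreted factors, VEGFA, the main growth signal for blood vessels, differed more between the shRNAs than between knockdown and control. It stood at 315 and 250 CPM in the controls, 311 and 468 CPM with sh-MIR100HG-1 and 195 and 271 CPM with sh-MIR100HG-2. Both libraries of sh-MIR100HG-2 were below both of sh-MIR100HG-1, and the control mean of 283 CPM fell between the means of 390 and 233 CPM. Between the shRNAs the log2FC (sh-MIR100HG-2 minus the other) was -0.74 ± 0.28 (SE, unadjusted p = 0.0276, adjusted p = 0.509 in edgeR's quasi-likelihood test), and that of both shRNAs against control was 0.09. The vessel-dilating peptide ADM ranged from 19.9 to 43.7 CPM, with a log2FC of -0.05 after knockdown. The lipase inhibitor ANGPTL4 ranged from 9.04 to 17.4 CPM, with a log2FC of -0.15. Full separation of the shRNAs was not particular to VEGFA. Other members, among them ANGPTL4, ALDOA and PKM, also showed it, and the share of all genes was not counted.

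Carbonic anhydrases at the cell surface help tumour cells to handle acid, and CA9 is among the most strongly induced hypoxia genes. Its level here was near the lower end of what was tested, with 18 and 90 counts in the controls, 23 and 18 counts with sh-MIR100HG-1 and 80 and 100 counts with sh-MIR100HG-2. In CPM these were 0.335 and 1.53, 0.346 and 0.425, and 1.76 and 1.998. Both sh-MIR100HG-2 libraries were above every other library, while the controls lay far apart from each other. Taken in the same direction, the log2FC between the shRNAs was 2.29 ± 0.72 (SE, unadjusted p = 0.0127, adjusted p = 0.509 in edgeR's quasi-likelihood test, 0.0195 without the filter on low counts), and the 95% interval in fold reached from 1.55 to 15.4. Without that filter 3.18% of all genes were called between the shRNAs.

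CA9 lies on the plus strand of chromosome 9 from 35673853 to 35681156 (GRCh37). Of its 1670 exon bases 643 are shared with ARHGEF39 on the other strand, a gene with 2081 counts over the 6 libraries beside 329 for CA9, and the strand setting of the counting is not given in the sources used here, so reads of the partner may be among these counts. Against control the direction of CA9 was not settled, at -1.28 under sh-MIR100HG-1 but 1.01 under sh-MIR100HG-2, and without sh-TRC replicate 2 the log2FC of both shRNAs turned from -0.14 to 1.34.

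CA12, the other surface enzyme of the list, had the lowest log2FC of all 40 after knockdown, -0.80 ± 0.41 (SE). It stood at 20.5 and 17.8 CPM in the controls, 17.8 and 6.28 CPM with sh-MIR100HG-1 and 13.0 and 7.03 CPM with sh-MIR100HG-2. In the second replicate of each shRNA it was far below the controls, whereas sh-MIR100HG-1 replicate 1 was level with sh-TRC replicate 2, the 2 libraries that stand apart. The unadjusted p was 0.0828 in edgeR's quasi-likelihood test. In the same test it was 0.00956 with the replicate block (log2FC -0.94, adjusted p 0.348). Without the filter on low counts it was 0.00354 (log2FC -0.80, adjusted p 0.125). The value moved with the library left out. The log2FC was -1.27 without sh-MIR100HG-1 replicate 1 and -1.05 without sh-MIR100HG-2 replicate 1. It was -0.53 without sh-MIR100HG-1 replicate 2 and -0.62 without sh-MIR100HG-2 replicate 2. Without both libraries that stand apart it was -1.38. CA9 made up 6.67% and 27.3% of the sum of both enzymes per kilobase in the controls, 7.85% and 22.9% with sh-MIR100HG-1 and 37.3% and 55.4% with sh-MIR100HG-2.

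**Figure D4:**
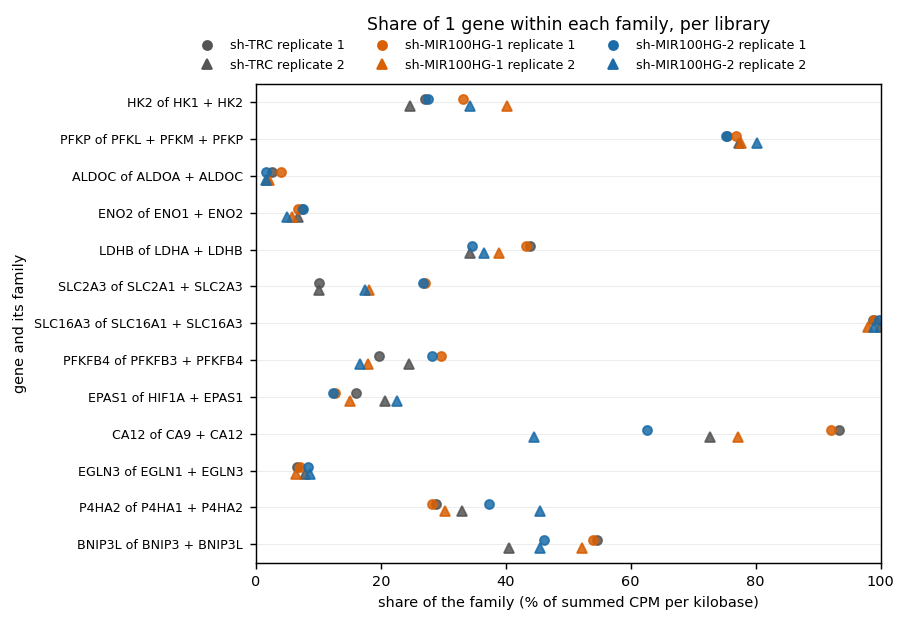
Share of 1 gene within the summed CPM per kilobase of its family, in percent, for 13 families in each library. Only the SLC2A3 and HK2 shares have all 4 knockdown libraries above both controls among the genes plotted, from 17.4% against 10.2% for SLC2A3 and from 27.6% against 27.1% for HK2.

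The mitophagy receptors BNIP3 and BNIP3L mark mitochondria for removal in low oxygen. BNIP3 ranged from 129 to 176 CPM with a log2FC of 0.09 and a 95% interval from -0.35 to 0.53, and its promoter held the most HIF core matches of the 35 members examined. BNIP3L ranged from 86.0 to 158 CPM and its controls stood apart at 142 and 86.0 CPM. NDRG1, a stress-induced gene used as a hypoxia marker, had a log2FC of -0.09.

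P4HA1 and P4HA2 hydroxylate proline in collagen, which the triple helix needs. P4HA2 stood at 102 and 123 CPM in the controls, 106 and 140 CPM with sh-MIR100HG-1 and 185 and 175 CPM with sh-MIR100HG-2. The sh-MIR100HG-2 libraries were above all others and close to each other, while those of sh-MIR100HG-1 overlapped the controls. The log2FC of sh-MIR100HG-2 against control was 0.68 ± 0.23 (SE) (unadjusted p = 0.0169, adjusted p = 0.508 in edgeR's quasi-likelihood test). Against sh-MIR100HG-1 it was 0.55 ± 0.23 (SE), with an unadjusted p of 0.0412.

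P4HA1 ranged from 76.1 to 117 CPM with a log2FC of 0.05 for sh-MIR100HG-2, so that the P4HA2 share of the pair was 28.9% and 33.0% in the controls, 28.1% and 30.3% with sh-MIR100HG-1 and 37.3% and 45.5% with sh-MIR100HG-2. The histone demethylase KDM3A ranged from 32.7 to 66.0 CPM (log2FC 0.23). ANKRD37, a small ankyrin protein induced by HIF, stayed between 2.62 and 3.57 CPM (log2FC 0.17). It shares 909 of its 2580 exon bases with UFSP2 on the other strand. UFSP2 had 5485 counts over the 6 libraries beside 965 for ANKRD37, so reads of the partner may be among these counts. Exons of PFKM, SLC16A3 and BNIP3L also overlap other-strand genes, by 628 bases with SENP1, 482 with CSNK1D and 330 with PNMA2.

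The rest of the pathway was read from 3 further lists, chosen by function. Of 34 tested genes of glucose and pyruvate metabolism outside the 40, 2 were higher (5.88%) and 4 lower (11.8%) after knockdown at an unadjusted p under 0.05, beside 3.23% and 4.44% of all genes, with a median log2FC of -0.05 and 0 called by edgeR's quasi-likelihood test. BPGM, which makes the red-cell regulator of haemoglobin, had a log2FC of 0.58, and PDHX, a core part of pyruvate dehydrogenase, 0.49. PDK4, a kinase that blocks that same complex, had -0.91, the glucose transporter SLC2A10 -0.86, the D-lactate dehydrogenase LDHD -0.96 and muscle enolase ENO3 -0.77. PDK4 stood at 5.77 and 5.81 CPM in the controls and at 2.24 to 3.70 CPM in the 4 knockdown libraries, all below both controls. So did SLC2A10 (2.91 to 4.17 CPM after knockdown), LDHD (1.14 to 2.08) and ENO3 (2.65 to 3.67), all at low levels. BPGM and PDHX lay above both controls in all 4. These genes were named for their unadjusted p, and that choice favours such separation.

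The 16 tested regulators of HIF had a median log2FC of 0.07 and 0 called. At an unadjusted p under 0.05, 1 was higher (6.25%) and 0 lower, beside 3.23% and 4.44% of all genes. It was SIAH2, a ubiquitin ligase that removes EGLN proteins, at 19.6 and 31.7 CPM in the controls and 35.7 to 52.6 CPM after knockdown (log2FC 0.76). The 44 further HIF-induced genes had a median of 0.09 and 0 called. Of them, 2 were higher (4.55%) and 1 lower (2.27%), beside 3.23% and 4.44% of all genes. These were the haem oxygenase HMOX1 (0.82), the hydroxylase JMJD6 (0.51) and IGFBP3, a carrier of insulin-like growth factors, which stood at 57.2 and 60.2 CPM in the controls and 33.97 to 43.1 CPM after knockdown (-0.63). The adjusted p of these 10 genes ran from 0.476 to 0.642 in the same fit.

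Leaving out both libraries that stand apart left 1 control and 3 knockdown libraries. By edgeR's quasi-likelihood test 0 of 40 members were then called, beside 1 of 15060 genes, and 2 members had an unadjusted p under 0.05, 1 higher and 1 lower, beside 4.73% of all genes. The median log2FC of the members was 0.15 and 31 of 40 were higher, beside a median of -0.04 for all genes. Leaving out sh-TRC replicate 2 alone gave a median of 0.19, whereas leaving out sh-TRC replicate 1 gave -0.06 with 17 of 40 higher, so the side on which the members fell as a list followed which control was kept.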

How the data were processed

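Total RNA of 6 MDA-MB-231 libraries was sequenced. According to the methods and the labels, the authors mapped reads to GRCh37 with STAR (version 2.5.2a in the submitters' processing notes, another in the methods) and the GENCODE annotation, and counted exons per gene with FeatureCounts. The values used are the raw counts that the authors deposited, without normalization. Strand setting and the handling of multimapping reads are not given in the sources used here. Replicates are biological by the study's legend.

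Genes with under 5 counts in at least 3 of 6 libraries were removed (12373 genes), as in the methods, and 15372 were tested. TMM normalization and the quasi-likelihood test of edgeR 4.0.16 (R 4.3.3) were fitted with 3 groups and no covariate (3 residual degrees of freedom, biological coefficient of variation 27.8%), with Benjamini-Hochberg adjustment over all genes tested. Comparisons were the mean of both shRNAs against control, each shRNA against control, and the shRNAs against each other. Intervals of 95% use the standard error of the log2FC and the degrees of freedom of the fit. CPM on the log2 scale carry a pseudocount of 0.125. Exact permutation tests are two-sided over 15 splits. Per-kilobase values use the deposited gene lengths and serve only to compare genes. Symbols came from an annotation of the same build (26966 of 27745 identifiers). Promoter letters are from RefSeq on GRCh38.p14 and were not combined with the GRCh37 coordinates. The fit was tested on simulated data. Alternatives were other normalizations, no filter, a likelihood ratio test, DESeq2 1.42.0, a replicate block and leaving out each library.

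Members were described singly where an unadjusted p was under 0.05 in any comparison, where they were among the 3 highest or 3 lowest after knockdown, or where their gene family was described, and all others by range. From the further lists, genes at an unadjusted p under 0.05 after knockdown are named. The members, lists and rules were chosen with earlier results of these data known.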

Additional observations from a re-analysis of the deposited data

How the results depend on the processing

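With RLE size factors, upper-quartile normalization and the other form of the quasi-likelihood fit, 0 of 40 members were called in every comparison and SLC2A3 kept a log2FC of 1.22 to 1.31. Without the filter on low counts 1 member was called in each comparison, SLC2A3 against control (adjusted p 7.9e-05 in the quasi-likelihood test) and CA9 between the shRNAs. All genes called then came to 1.84% after knockdown (392 genes), 1.06% with sh-MIR100HG-1, 2.42% with sh-MIR100HG-2 and 3.18% between the shRNAs. Members at an unadjusted p under 0.05 came to 3 after knockdown, 4 with sh-MIR100HG-1 and 5 between the shRNAs. The shares of all genes were 9.05%, 7.69% and 11%. The likelihood ratio test of edgeR and DESeq2 each called 1 member, SLC2A3, after knockdown and with either shRNA. All genes called after knockdown came to 109 (0.709%) and 124 (0.807%). With sh-MIR100HG-1 the shares were 0.221% and 0.377%, and with sh-MIR100HG-2 they were 0.787% and 1.02%. DESeq2 gave 2 members at an unadjusted p under 0.05 with sh-MIR100HG-1 (all genes: 8.35%). Same-numbered libraries were not shown to be pairs across the 3 groups. The correlation of their deviations was -0.213 for control and sh-MIR100HG-1 and 0.0219 for control and sh-MIR100HG-2, but 0.497 between the shRNAs. Over the members these values were -0.0921, -0.226 and 0.573. Same-numbered libraries of the 2 shRNAs thus tended to move together, and the cause was not tested. With the replicate block 0 members were called, the log2FC of SLC2A3 was 1.27 and that of CA9 turned to 0.10. The members at an unadjusted p under 0.05 came to 2 after knockdown, 2 with sh-MIR100HG-1, 4 with sh-MIR100HG-2 and 6 between the shRNAs. The shares of all genes were 10.3%, 9.24%, 11.9% and 13.1%. Fitting only the 2 groups compared gave 5 members between the shRNAs (all genes: 10.8%). Leaving out each library in turn, 0 members were called in any comparison. The members at an unadjusted p under 0.05 then ran from 1 to 2 after knockdown, from 1 to 6 with sh-MIR100HG-1 and from 1 to 5 both with sh-MIR100HG-2 and between the shRNAs, while the share of all genes ran from 4.53% to 10.7%, from 1.99% to 10.5%, from 4.02% to 12.5% and from 6.2% to 12.2% (10.5% beside the 6 members with sh-MIR100HG-1, found without sh-TRC replicate 1). Their median log2FC ran from -0.063 to 0.19 after knockdown, from -0.13 to 0.18 with sh-MIR100HG-1, from -0.041 to 0.19 with sh-MIR100HG-2 and from -0.11 to 0.23 between the shRNAs. The log2FC of SLC2A3 ran from 1.12 to 1.47, of SLC16A1 from 0.26 to 2.29, of CA12 from -1.27 to -0.53, of P4HA2 from 0.27 to 0.54, of PFKM from -0.36 to -0.12 and of HK1 from -0.39 to -0.063. That of CA9 ran from -0.85 to 1.34, turning without sh-TRC replicate 2, and that of VEGFA from -0.070 to 0.27, turning without sh-TRC replicate 2 (-0.066), sh-MIR100HG-1 replicate 2 (-0.070) or sh-MIR100HG-2 replicate 2 (-0.042). The cause was not tested. Leaving out both libraries that stand apart, an alternative chosen after seeing the data, gave 2, 2 and 5 members at an unadjusted p under 0.05 after knockdown, under sh-MIR100HG-1 alone and under sh-MIR100HG-2 alone (all genes: 4.73%, 2.88% and 8.09%), a median log2FC of 0.23 between the shRNAs, and 1.41 for CA9, -1.38 for CA12 and 0.35 for SLC16A1. Where a group was left with 1 library, it was taken to vary like the other groups.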

Other observations

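Both libraries that stand apart belong to different groups, and neither the labels nor the methods name a batch, so no value within a batch can be given. With 4 against 2 libraries the exact permutation test cannot go below 0.0667, so that test could not pass 0.05 for any gene. At 18 to 100 counts CA9 carries counting error beside the spread of the libraries. Protein levels, oxygen tension and lactate were not analysed here.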
